A study of Mus with 6 samples.

Results

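Brain gene expression of SCOP-exposed mice was compared with that of mice given saline, by setting all 4 exposed arrays against the 2 Control arrays across 19505 genes. The exposed side holds SCOP replicates 1 and 2 and CK2 replicates 1 and 2, which are all the arrays of the series whose mice received SCOP, and the 2 Control arrays complete the 6 arrays of the series. The comparison was repeated without SCOP replicate 2, which leaves 3 exposed arrays against 2. The brains came from ICR mice, which are outbred, so the animals of a group are not genetically identical. Control mice received saline only. SCOP mice received SCOP at 2 mg/kg, and CK2 mice received the same dose of SCOP after CK, the ginsenoside metabolite compound K, at 40 mg/kg. Dosing ran over 14 days, SCOP starting on day 7, and the brains were removed once behaviour had been tested, foot-shock avoidance among the tests. No group received CK without SCOP, so on the CK2 arrays exposure to SCOP and exposure to CK cannot be told apart. The labels write SCOP out as scopoletin hydrobromide, while memory models of this kind are usually made with scopolamine hydrobromide, so the agent is called SCOP here. The sources used here give neither age nor sex, nor whether a sample is a single mouse or a pool, so p-values measure the spread between these samples.

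Scopolamine is an antagonist of muscarinic acetylcholine receptors. These receptors sit on cortical, hippocampal and striatal neurons, where acetylcholine released from basal forebrain and striatal neurons tunes excitability and synaptic plasticity, and their blockade impairs the acquisition of memory. Immediate early genes are the transcription factors and signalling proteins that neurons switch on within minutes of activity. Interferon response genes and major histocompatibility complex (MHC) genes are expressed at low levels in the healthy brain and belong to its innate and adaptive defence.

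One array, SCOP replicate 2, was unlike the rest. It correlated with them at 0.965 to 0.969 over all genes, against 0.990 to 0.993 among the others, and its values were compressed, with an interquartile range over genes of 3.19 against 3.57 to 3.70. A gene is called dim on an array where it lay below the 95th percentile of that array's negative control probe sets, on the log2 scale of the deposited values 5.55 for SCOP replicate 2 and between 4.98 and 5.16 for the others. In all, 9466 genes (48.5%) were dim on every array. Markers of neurons (Snap25, Slc17a7, Gad1), oligodendrocytes (Mbp), astrocytes (Gfap) and microglia (P2ry12) were not dim on any array, and the T cell gene Cd3e and the pituitary hormones Prl and Gh were dim on every array.

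No gene passed an adjusted p of 0.05 in the comparison of the exposed arrays with Control, which is 0% of the 19505 genes tested with limma and Benjamini-Hochberg adjustment. The smallest adjusted p was 0.9999. At an unadjusted p under 0.05 there were 331 genes with higher levels in exposed brains (1.7%) and 143 with lower levels (0.733%), together 474 where chance alone gives 975. The fit has 4 residual degrees of freedom. Direction was therefore described by the arrays themselves. On every exposed array 1193 genes (6.12%) lay above both Control arrays and 1027 genes (5.27%) lay below both, together 2220 genes. Exchangeable arrays would by chance alone separate a share of 0.133 of genes, which is more than were seen. The median size of their mean log2 change was 0.31, and the largest was 1.53 for H2-T23. The share of the 2220 with higher levels was 53.7% as deposited and depended on the scaling, at 48.4% with quantile normalization, 47.8% with cyclic loess and 31.9% with medians centred. Among the 474 it was 69.8% as deposited, 51.1% with quantile normalization, 49.0% with cyclic loess and 44.3% with medians centred.

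Brightness moved with the direction. Of the genes dim on every array 8.70% lay above both Control arrays and 3.66% below, and of the other 10039 genes 3.68% lay above and 6.78% below. With quantile normalization the dim genes gave 6.23% and 6.05%, and the others 4.20% and 5.04%. Control replicate 2 had the lowest gene median of the arrays, 4.78 against 4.82 to 4.91. The part of array brightness in the counts of higher genes was not tested. Because RMA scales the arrays to each other and bulk tissue mixes cell types, fewer cells of a type and less RNA per cell cannot be told apart.

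The gap of a gene is the distance between the nearest arrays of both sides. It reached 1.5-fold for 7 genes, 6 of them with higher levels in exposed brains (0.0308% of genes) and 1 with lower (0.00513%). Zfp976, which encodes a zinc finger protein, had the widest gap. Its levels were 2.66 and 2.51 in Control, 3.61 and 3.64 in SCOP and 3.51 and 3.63 in CK2, where the first value of each pair is replicate 1. All 4 exposed arrays lay within 0.14 of each other (log2 change 1.01, standard error 0.15, unadjusted p of 0.000118 in limma), yet the gene was dim on every array. H2-T23 encodes Qa-1, a nonclassical MHC class I molecule that is read by receptors of natural killer cells. It measured 3.71 and 3.09 in Control, 4.53 and 4.94 in SCOP and 5.44 and 4.80 in CK2. The highest exposed array was CK2 replicate 1, the only array on which H2-T23 was not dim, and the lowest exposed array exceeded the higher Control array by 0.83 (log2 change 1.53, standard error 0.28, unadjusted p of 0.000417). H2-T22, a second nonclassical class I gene whose product is recognised by some gamma delta T cells, measured 2.70 and 2.66 in Control, 3.59 and 3.52 in SCOP and 3.95 and 4.24 in CK2. It was dim on every array, and its CK2 arrays were higher than its SCOP arrays (log2 change 1.14, standard error 0.23). Probes of H2-T genes may not tell the closely related members apart.

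Pisd-ps3, a pseudogene related to the mitochondrial enzyme phosphatidylserine decarboxylase, was the only one of the 7 that was dim on no array. Its levels were 5.50 and 5.27 in Control, 6.16 and 6.57 in SCOP and 6.16 and 6.39 in CK2 (log2 change 0.94, standard error 0.18, unadjusted p of 0.000741), and related copies in the genome may add to its signal. Anxa1 encodes annexin A1, a phospholipid-binding protein induced by glucocorticoids that dampens inflammation. It measured 2.48 and 2.63 in Control, 3.62 and 3.32 in SCOP and 3.27 and 3.38 in CK2, dim throughout (log2 change 0.84, standard error 0.17). Tubgcp5, a subunit of the gamma-tubulin complex that nucleates microtubules, measured 4.10 and 3.96 in Control, 4.75 and 4.78 in SCOP and 4.70 and 4.71 in CK2. Its exposed arrays were within 0.08 of each other (log2 change 0.71, standard error 0.15). Ninj2, an adhesion protein known from injured peripheral nerve, was the gene with lower levels. It measured 5.25 and 4.95 in Control, 4.17 and 4.22 in SCOP and 4.23 and 4.33 in CK2, which is above the dim level on Control replicate 1 only (log2 change -0.86, standard error 0.16, unadjusted p of 0.000582). Zfp976, Anxa1, Tubgcp5 and Ninj2 fall outside the rule for named genes because the mean of their higher side is below the mean dim level, and were chosen after their values were seen.

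Of the 2220 genes, 144 had a mean change of at least 1.5-fold, and 31 of those had a mean above the mean dim level on their higher side, 9 with higher and 22 with lower levels in exposed brains. The predicted gene Gm5796 was left out of the 9. Besides Pisd-ps3, the genes with higher levels were led by Nectin3, a cell adhesion molecule of neuronal contacts, at 4.93 and 4.75 in Control, 5.95 and 5.51 in SCOP and 5.54 and 5.60 in CK2. Every exposed array was at least 0.58 above Control (log2 change 0.81, standard error 0.18, unadjusted p of 0.00189). Both Ifit3b and Ifit3, neighbouring interferon-induced antiviral genes whose probes may cross-react, were in the set. Ifit3b measured 4.67 and 4.27 in Control, 5.11 and 5.74 in SCOP and 5.53 and 5.26 in CK2 (log2 change 0.93, standard error 0.22). Ifit3 was brighter, at 5.21 and 4.99 in Control, 5.49 and 6.45 in SCOP and 5.57 and 5.66 in CK2 (log2 change 0.69, standard error 0.27). For both genes SCOP replicate 2 was the highest array, and the change of Ifit3 was 0.47 without it.

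A pair of zinc finger genes had higher levels too. Zfp97 measured 4.53 and 4.28 in Control, 5.46 and 4.89 in SCOP and 5.48 and 5.36 in CK2 (log2 change 0.89, standard error 0.21). Zfp131 measured 5.95 and 5.61 in Control, 6.44 and 6.28 in SCOP and 6.42 and 6.37 in CK2 (log2 change 0.60, standard error 0.17). Zfp131 was bright on every array, and its exposed values spanned 0.16. Mmut, the mitochondrial vitamin B12-dependent methylmalonyl-CoA mutase, measured 5.81 and 5.79 in Control, 6.31 and 6.80 in SCOP and 6.42 and 6.05 in CK2. Its Control arrays were within 0.02 of each other, and its log2 change was 0.59 (standard error 0.22). Riok2, a kinase needed for maturation of the small ribosomal subunit, measured 6.18 and 5.14 in Control, 6.18 and 6.30 in SCOP and 6.45 and 6.48 in CK2. Its Control arrays differed by more than its change of 0.70, the nearest arrays of both sides were 0.00827 apart, and the sides overlapped with quantile normalization.

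**Figure D1:**
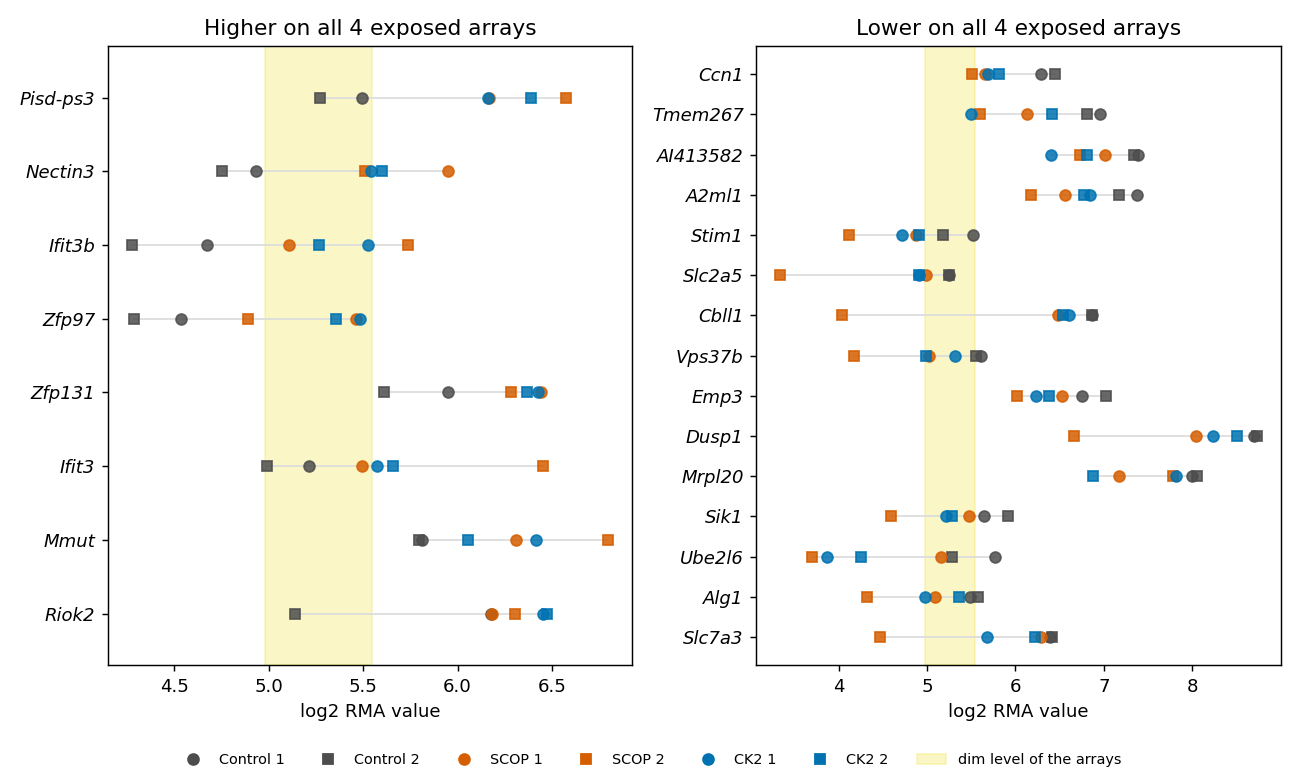
Levels (log2 RMA value, horizontal axis) of the 8 genes with higher and the 15 genes with lower values on all 4 exposed arrays that met the rule for named genes, sorted by gap; each point is 1 array, grey for Control, orange for SCOP and blue for CK2, and the yellow band spans the dim levels of the 6 arrays. SCOP replicate 2 (orange squares) lies far to the left for Slc2a5, Cbll1, Dusp1 and Slc7a3, while for Ccn1 and Zfp131 the exposed points sit close together.

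Among the genes with lower levels, Ccn1 had the widest gap. It encodes a secreted matrix protein and is itself an immediate early gene, and measured 6.29 and 6.45 in Control, 5.65 and 5.51 in SCOP and 5.69 and 5.82 in CK2 (log2 change -0.71, standard error 0.16, unadjusted p of 0.00213). Tmem267, a transmembrane protein, measured 6.96 and 6.81 in Control, 6.13 and 5.60 in SCOP and 5.50 and 6.42 in CK2. Both sides were well apart, but its exposed arrays spanned 0.92 (log2 change -0.97, standard error 0.27). A2ml1, an inhibitor of proteases of the alpha-2-macroglobulin family, measured 7.38 and 7.17 in Control, 6.56 and 6.17 in SCOP and 6.84 and 6.78 in CK2 (log2 change -0.69, standard error 0.22). AI413582 (7.38 and 7.34 in Control, 6.40 to 7.01 in exposed brains) and Emp3, an epithelial membrane protein (6.76 and 7.02 against 6.01 to 6.53), were likewise not dim on any array.

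Ube2l6, the enzyme that charges the interferon-induced modifier ISG15 onto proteins, had the largest mean difference of the 15. It measured 5.77 and 5.28 in Control, 5.15 and 3.70 in SCOP and 3.87 and 4.25 in CK2 (log2 change -1.28, standard error 0.38, unadjusted p of 0.00845). Its SCOP replicate 1 lay only 0.13 below Control replicate 2, and the other 3 exposed arrays were lower still. Stim1, the calcium sensor of the endoplasmic reticulum, measured 5.52 and 5.19 in Control, 4.88 and 4.11 in SCOP and 4.72 and 4.92 in CK2 (log2 change -0.70, standard error 0.25). Vps37b, a subunit of the ESCRT-I sorting complex, measured 5.61 and 5.56 in Control, 5.02 and 4.18 in SCOP and 5.32 and 4.99 in CK2, clear of Control on every exposed array. Alg1, a mannosyltransferase of N-glycosylation, measured 5.49 and 5.58 in Control, 5.10 and 4.32 in SCOP and 4.98 and 5.36 in CK2. Mrpl20 of the mitochondrial ribosome measured 7.99 and 8.05 in Control, 7.17 and 7.79 in SCOP and 7.82 and 6.88 in CK2, low on SCOP replicate 1 and CK2 replicate 2 but overlapping with quantile normalization and with cyclic loess.

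For several genes with lower levels a single array set the size of the change. Slc2a5, the fructose transporter GLUT5 that microglia express in brain, measured 5.25 and 5.25 in Control, 4.99 and 3.34 in SCOP and 4.91 and 4.91 in CK2. Cbll1, a ubiquitin ligase linked to RNA methylation, measured 6.86 and 6.87 in Control, 6.48 and 4.04 in SCOP and 6.61 and 6.54 in CK2. Slc7a3, a transporter of cationic amino acids, measured 6.39 and 6.41 in Control, 6.28 and 4.47 in SCOP and 5.68 and 6.22 in CK2. SCOP replicate 2 lay at least 1 log2 unit below every other array of these 3 genes. Without that array their log2 changes went from -0.72 to -0.32 for Slc2a5, from -0.95 to -0.32 for Cbll1 and from -0.74 to -0.34 for Slc7a3, and the other exposed arrays still lay below Control.

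Of the 53 gene lists, that of interferon response genes had the largest number of members above Control. Of 40 measured members 10 (25%, where 6.12% of all genes did) lay above both Control arrays on every exposed array and 1 below, and the median log2 change of the list was 0.13 where that of all genes was 0.00. At an unadjusted p under 0.05 there were 5 higher (1.7% of all genes) and 1 lower (0.733% of all genes). The count was 9 above and 1 below with quantile normalization, median centring and cyclic loess, where 5.19%, 3.76% and 5.21% of all genes lay above. Gbp3, a guanylate-binding protein that attacks intracellular pathogens, measured 3.89 and 3.50 in Control, 4.53 and 4.52 in SCOP and 4.57 and 4.41 in CK2 (log2 change 0.81, standard error 0.17, unadjusted p of 0.00118). Its exposed arrays lay within 0.16 of each other, clear of Control by 0.52. Igtp, an immunity-related GTPase, measured 2.04 and 2.14 in Control, 2.99 and 3.14 in SCOP and 2.71 and 2.59 in CK2 (log2 change 0.77, standard error 0.20), higher in SCOP than in CK2 and lowest in Control.

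Its relative Irgm1 measured 4.50 and 4.68 in Control, 4.86 and 4.95 in SCOP and 5.16 and 5.12 in CK2 (log2 change 0.43, standard error 0.17), the other way round, with CK2 highest. The further members above Control were Ifit3, already described, and, named after their values were seen, Iigp1, Irf9, Ifi35, Gbp4, Eif2ak2 and Oas2, with log2 changes of 0.19 (Oas2) to 0.50 (Iigp1). Irf9, a subunit of the transcription factor that type I interferon activates, overlapped Control in each of the other 3 scalings. Isg20, an exonuclease that degrades viral RNA, was the member below Control, at 4.29 and 3.95 in Control, 3.85 and 3.42 in SCOP and 3.38 and 3.02 in CK2 (log2 change -0.70, standard error 0.24). Of the 40 members 28 were dim on every array, among them Gbp3, Igtp and Isg20. The list mean was 3.78 and 3.72 on the Control arrays and 3.83 to 3.93 on the exposed arrays. Of 17 interferon genes, all type I but Ifng, the type II interferon, 16 were dim on every array, and none lay above both Control arrays on every exposed array; Ifna1 lay below (4.16 and 4.34 in Control, 3.57 to 4.10 in exposed brains).

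MHC and antigen presentation genes had a similar count as deposited, 9 of 34 above Control (26.5%, against 6.12% of all genes) and 1 below (against 5.27%). Their median log2 change was 0.22, with list means of 4.02 and 4.01 on Control and 4.21 to 4.34 on exposed arrays. The count was 4 above and 2 below with quantile normalization and with cyclic loess, and 5 and 2 with median centring. The shares of all genes above were then 5.19%, 5.21% and 3.76%, and those below 5.53%, 5.7% and 8.05%. Of the 34 members 25 were dim on every array, and of all such dim genes 8.7% lay above and 3.66% below Control as deposited. Besides H2-T23 and H2-T22, the named members are H2-Q10, a secreted class I molecule, at 2.75 and 2.76 in Control, 2.97 and 3.10 in SCOP and 3.11 and 3.07 in CK2, and H2-M5. H2-Q10 was 0.21 above Control on its lowest exposed array (log2 change 0.30, standard error 0.15). H2-M5 measured 2.64 and 2.75 in Control, 3.74 and 3.46 in SCOP and 2.94 and 2.84 in CK2. It was high on the SCOP arrays only and overlapped Control in the other 3 scalings. The rest of the 10, named after their values were seen, were H2-Oa, H2-Eb2, H2-M1, H2-T24 and Tap1 above Control by log2 changes of 0.22 (H2-T24) to 0.34 (H2-Oa), and H2-DMb2 below by a change of -0.28. H2-Eb2, H2-T24 and the peptide transporter Tap1 overlapped in all 3 other scalings.

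Markers of immune cells were read beside these genes. Of all genes 6.12% lay above and 5.27% below Control, and of genes dim on every array 8.7% above and 3.66% below. Of 16 microglia markers 2 lay above Control (Trem2, 4.17 and 4.44 in Control and 4.60 to 5.24 in exposed brains, and Siglech, 4.18 and 4.35 against 4.39 to 4.89, both dim on every array), and the protease Ctss lay below, at 7.24 and 7.65 against 6.88 to 7.08. The list mean was 5.67 and 5.94 in Control and 5.66 to 5.76 in exposed brains. Siglech overlapped Control in the other 3 scalings, and Ctss did with cyclic loess. Of 17 markers of perivascular macrophages and other leukocytes 14 were dim on every array, 1 lay above (Cd8a) and 1 below (Cd79a), and the mean was 3.50 and 3.34 in Control against 3.36 to 3.58. The means of both lists overlapped between the sides, and the part of immune cell numbers in the interferon and MHC values was not tested further. Of 23 inflammatory genes, cytokines and chemokines with 5 others (Nos2, Ptgs2, Nfkbia, Lcn2 and Saa3), 18 were dim throughout. The chemokine Ccl2 (3.71 and 3.70 in Control, 3.91 to 4.65 in exposed brains) and Nos2, the inducible nitric oxide synthase (1.76 and 1.68 against 1.90 to 1.99), lay above Control, and Il10 lay below Control by 0.01 on its nearest array.

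**Figure D2:**
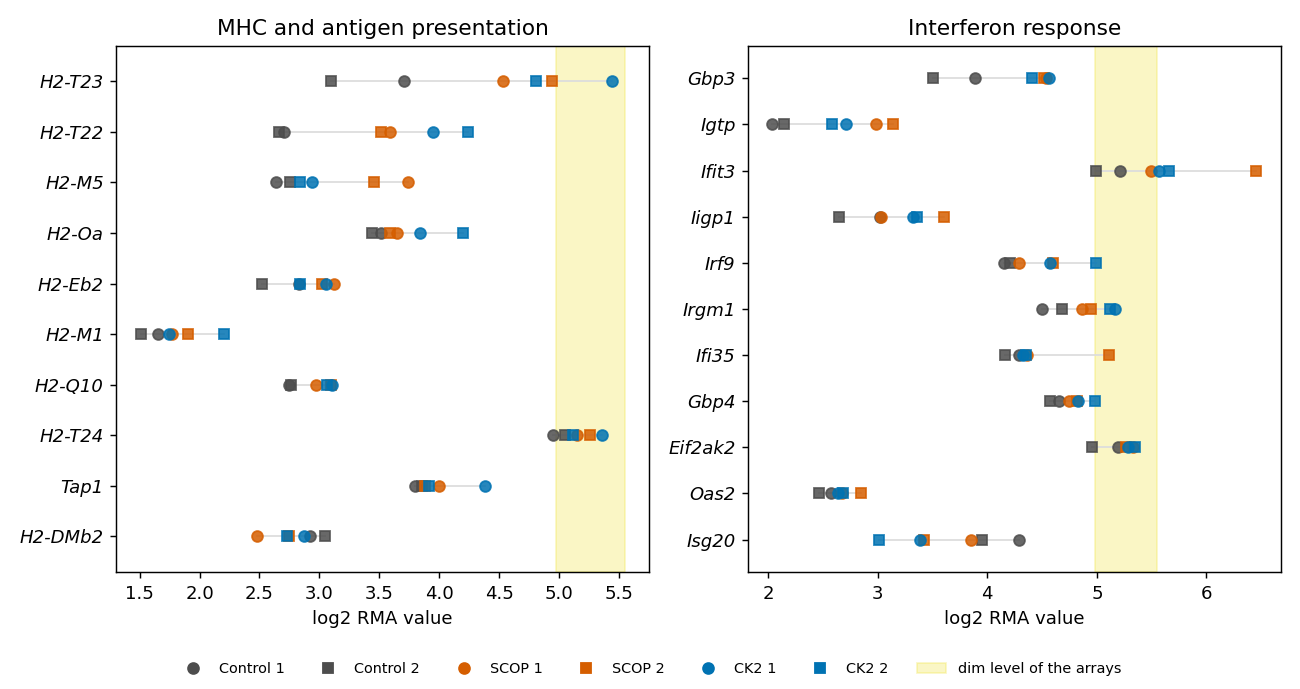
Levels (log2 RMA value, horizontal axis) of every MHC and antigen presentation gene (left) and interferon response gene (right) whose exposed arrays do not overlap Control, sorted by log2 change; each point is 1 array, coloured by group, and the yellow band spans the dim levels of the arrays. Most points lie left of or inside the band, and the sides are wide apart only for H2-T23, H2-T22, Gbp3 and Igtp.

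Immediate early genes leaned the other way. Of 47 measured members 11 (23.4%, where 5.27% of all genes did) lay below both Control arrays on every exposed array and 1 lay above. In limma 5 members were lower and 1 higher at an unadjusted p under 0.05, where 0.733% and 1.7% of all genes were. The counts were 11 below with quantile normalization, 12 with cyclic loess and 14 with median centring, with 1 above in each. The shares of all genes below were then 5.53%, 5.7% and 8.05%. The median log2 change of the list was -0.18, and -0.06 without SCOP replicate 2. On the 3 exposed arrays then left, 11 members lay below Control and 4 above, where 10.2% and 11.6% of all genes did. Only 9 of the 47 had a change above 0, and 14 without SCOP replicate 2. The list means were 6.10 and 6.16 in Control and 5.52 to 6.13 in exposed brains, so that CK2 replicate 2 lay between the Control arrays and the other exposed arrays below them.

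After Ccn1, the smallest unadjusted p values among members with lower levels were those of Ier2 and Btg2. Ier2, a nuclear protein induced by growth factors, measured 4.57 and 5.21 in Control, 3.69 and 4.11 in SCOP and 4.40 and 4.43 in CK2 (log2 change -0.73, standard error 0.26). Btg2, an antiproliferative gene, measured 5.41 and 5.58 in Control, 5.04 and 4.61 in SCOP and 4.90 and 5.26 in CK2 (log2 change -0.54, standard error 0.21). For Ier2 the Control arrays differed by 0.63, nearly as much as the change, and the gene was above the dim level on Control replicate 2 only. Dusp1, the phosphatase that switches off MAP kinases, measured 8.69 and 8.73 in Control, 8.04 and 6.66 in SCOP and 8.23 and 8.51 in CK2. CK2 replicate 2 was within 0.19 of Control, and SCOP replicate 2 lay over 1 log2 unit below every other array (log2 change -0.85, and -0.45 without that array). Sik1, a kinase that restrains CREB-dependent transcription, measured 5.64 and 5.92 in Control, 5.48 and 4.59 in SCOP and 5.22 and 5.28 in CK2 (log2 change -0.64, standard error 0.25).

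The other 6 members below Control were named after their values were seen. Fos, the best known activity marker, measured 5.91 and 5.96 in Control, 4.999 and 5.13 in SCOP and 5.71 and 5.82 in CK2. The SCOP mean differed from Control by -0.87 and the CK2 mean by -0.16, and CK2 was 0.70 above SCOP (unadjusted p of 0.00656 in limma, where no gene passed the adjusted threshold). Fos was dim on both SCOP arrays, whose dim levels were 5.01 and 5.55, so the sizes of these differences rest on values at the background level. Egr2, a transcription factor of the same wave, measured 6.69 and 6.65 in Control, 5.81 and 5.87 in SCOP and 6.50 and 6.23 in CK2. Junb, a partner of Fos, measured 6.59 and 6.81 in Control, 5.97 and 6.18 in SCOP and 6.52 and 6.39 in CK2, and in both genes the SCOP arrays were again lowest. Npas4, which neurons induce selectively upon calcium entry, measured 4.96 and 4.93 in Control, 4.29 and 2.85 in SCOP and 4.29 and 4.62 in CK2 and was dim on every array. Egr1 measured 9.54 and 9.69 in Control, 9.09 and 7.62 in SCOP and 9.49 and 9.39 in CK2. Nr4a2, an orphan nuclear receptor, measured 7.86 and 7.86 in Control, 7.67 and 6.02 in SCOP and 7.78 and 7.82 in CK2. They were separated from Control by 0.05 and 0.04 on their nearest arrays, and their lowest array was SCOP replicate 2, with log2 changes of -0.29 and -0.11 without it. Ier3, a stress-induced regulator of cell survival, was the member above Control, at 4.84 and 4.66 in Control, 5.03 and 5.33 in SCOP and 5.15 and 5.61 in CK2 (log2 change 0.53, standard error 0.20).

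**Figure D3:**
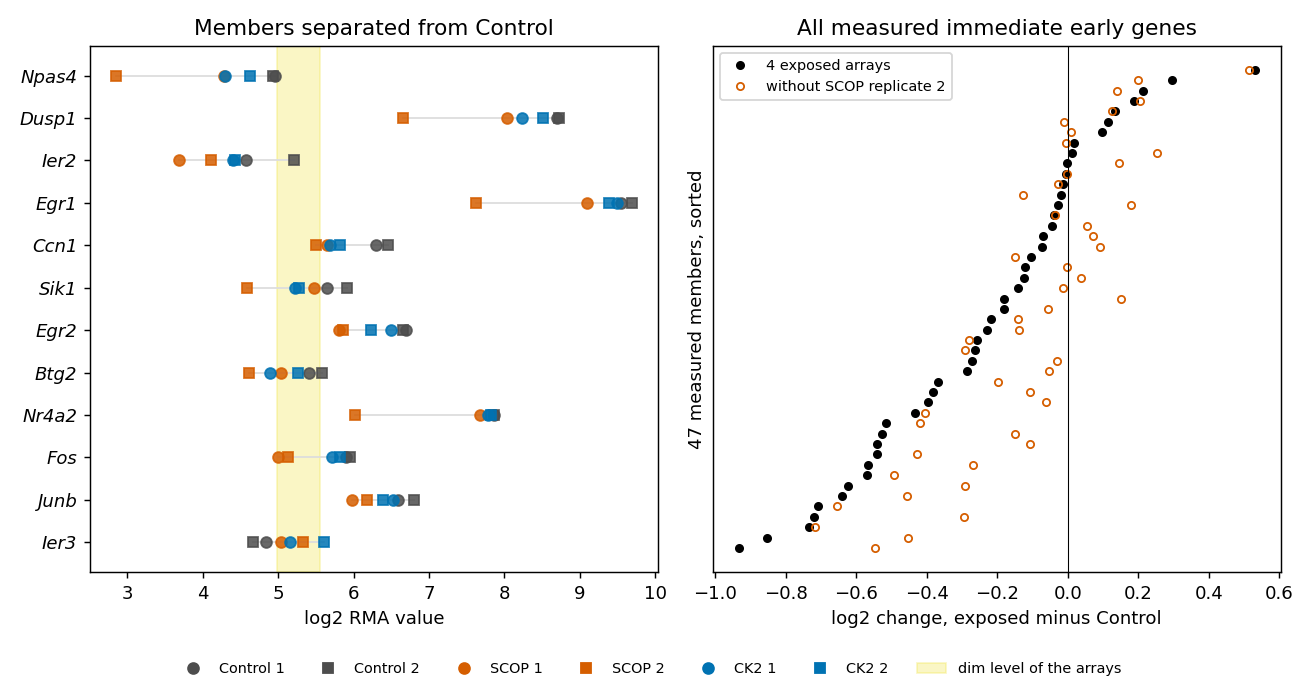
Left, levels (log2 RMA value) on each array of the 12 immediate early genes whose exposed arrays do not overlap Control, with the dim levels as a yellow band; right, the log2 change of exposed minus Control for all 47 measured members, sorted, with all 4 exposed arrays (black) and without SCOP replicate 2 (open orange). Most black points lie left of 0, and leaving out SCOP replicate 2 moves many of them towards 0.

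Of the lists for oligodendrocytes, neurons and astrocytes, oligodendrocyte and inhibitory neuron genes had the largest shares of members below Control in the deposited values. With cyclic loess excitatory and striatal projection neuron genes had larger shares below (12.5% each) than inhibitory neuron genes (11.8%), against 5.7% of all genes. Of 20 oligodendrocyte genes none lay above Control and 5 lay below (25%, where 5.27% of all genes did), among them Enpp6, Mal, Ugt8a and Sox10, and the median log2 change was -0.22. The count below was 3 with quantile normalization, 4 with cyclic loess and 9 with median centring. The shares of all genes below were then 5.53%, 5.7% and 8.05%. Mal, a lipid raft protein of compact myelin, measured 10.01 and 9.90 in Control, 9.62 and 9.33 in SCOP and 9.81 and 9.74 in CK2 (log2 change -0.33, standard error 0.18). Sox10, the lineage's transcription factor, measured 6.16 and 6.28 in Control, 6.04 and 4.86 in SCOP and 6.10 and 5.83 in CK2, with SCOP replicate 2 lowest. Ugt8a, which makes the galactolipids of myelin, measured 8.59 and 8.53 in Control, 8.15 and 8.29 in SCOP and 8.50 and 8.22 in CK2 and overlapped with cyclic loess and quantile normalization. Without SCOP replicate 2 the list's median was -0.14, 6 members lay below (where 10.2% of all genes did) and 1 of 20 had a change above 0. The levels of Mbp, the major myelin protein, overlapped between the sides (11.31 and 11.36 in Control, 11.22 to 11.50 in exposed brains).

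Of 17 inhibitory neuron genes 4 lay below Control (23.5%, where 5.27% of all genes did) and none above (median log2 change -0.17). These were the calcium buffer Calb2 and the neuropeptides Cck, Npy and Sst. The count below was 4 with quantile normalization, 5 with median centring and 2 with cyclic loess, where Calb2 and Sst overlapped Control. The shares of all genes below were then 5.53%, 8.05% and 5.7%. Npy measured 7.42 and 7.48 in Control, 7.23 and 6.29 in SCOP and 7.17 and 7.23 in CK2. Cck measured 10.01 and 10.16 in Control, 9.90 and 8.75 in SCOP and 9.61 and 9.91 in CK2. Without SCOP replicate 2 the changes were -0.24 and -0.28, and Gad1, the enzyme that makes GABA, lay above Control on the other exposed arrays (7.59 and 7.73 in Control, 7.79 to 7.81 on those 3). With all exposed arrays, excitatory neuron genes had 1 of 16 below (6.25%, Neurod2) and astrocyte genes 2 of 18 (11.1%, Slc7a10, Gja1), against 5.27% of all genes. Endothelial and cerebellar genes had none of 18 and of 13 in either direction.

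Genes of the midbrain and hindbrain had 4 of 16 above Control (25%) and 1 below, where 6.12% of all genes lay above and 5.27% below and 8.70% of genes dim on every array lay above. Hoxa5, a positional transcription factor of the caudal hindbrain and spinal cord, measured 4.39 and 3.95 in Control, 4.65 and 4.64 in SCOP and 4.76 and 4.88 in CK2 (log2 change 0.56, standard error 0.18, unadjusted p of 0.0134), and was dim on every array. Its relative Hoxc5 measured 3.27 and 3.20 in Control, 3.57 and 4.08 in SCOP and 3.74 and 3.44 in CK2, also dim on every array, as was En1 (4.42 and 4.31 in Control, 4.47 to 4.78 in exposed brains). Ddc, which makes dopamine and serotonin, was bright and measured 5.39 and 5.50 in Control, 5.79 and 5.86 in SCOP and 5.55 and 6.02 in CK2, but overlapped with quantile normalization and median centring. Choroid plexus genes had 3 of 16 above (18.8%) and none below. Their list mean overlapped between the sides too (5.17 and 5.39 in Control, 4.91 to 5.50 in exposed brains), and 8 of the 16 had a change above 0. Kcne2, a potassium channel subunit of that epithelium, measured 3.39 and 3.42 in Control, 3.76 and 3.81 in SCOP and 3.87 and 4.10 in CK2 (log2 change 0.48, standard error 0.17), dim throughout, and Tmem72 and the channel Kcnj13 were separated from Control by 0.05 and 0.01. The sources used here do not say how the brain was divided between assays, and the part of dissection in these regional genes was not tested.

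Metabolic and housekeeping lists are read against the same shares of all genes, 5.27% below Control and 6.12% above. Of 19 cholesterol synthesis genes 5 lay below Control (26.3%) and 1 above. The count below was 4 with quantile normalization, 3 with cyclic loess and 6 with median centring. The shares of all genes below were then 5.53%, 5.7% and 8.05%. Nsdhl, a late enzyme of the pathway, measured 7.56 and 7.71 in Control, 7.35 and 7.26 in SCOP and 7.42 and 7.37 in CK2 (log2 change -0.29, standard error 0.15). Sc5d, another, measured 9.16 and 9.18 in Control, 8.88 and 8.89 in SCOP and 8.86 and 9.005 in CK2 (log2 change -0.26, standard error 0.15). The exposed arrays of Sc5d spanned 0.15. Idi1, an early enzyme, was the member above, at 6.27 and 6.20 in Control, 6.36 and 6.63 in SCOP and 6.63 and 6.34 in CK2. Of 55 genes of mitochondrial complexes 4 lay below (7.27%, near the share of all genes) and none above, and quantile normalization and cyclic loess turned this round, each with 2 above and none below. Of 30 proteasome genes 3 lay below (10%) and none above, with 1 below in those 2 scalings, and of 48 cytosolic ribosomal protein genes none in either direction. The Nrf2 and antioxidant list had 3 of 31 below (9.68%) and 1 above, and the apoptosis, circadian clock and neurotrophin lists (15, 19 and 10 measured genes) had none. Collagen and basement membrane genes had 3 of 23 above (13%), Col4a2, Col5a2 and Col23a1, all dim on every array.

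**Figure D4:**
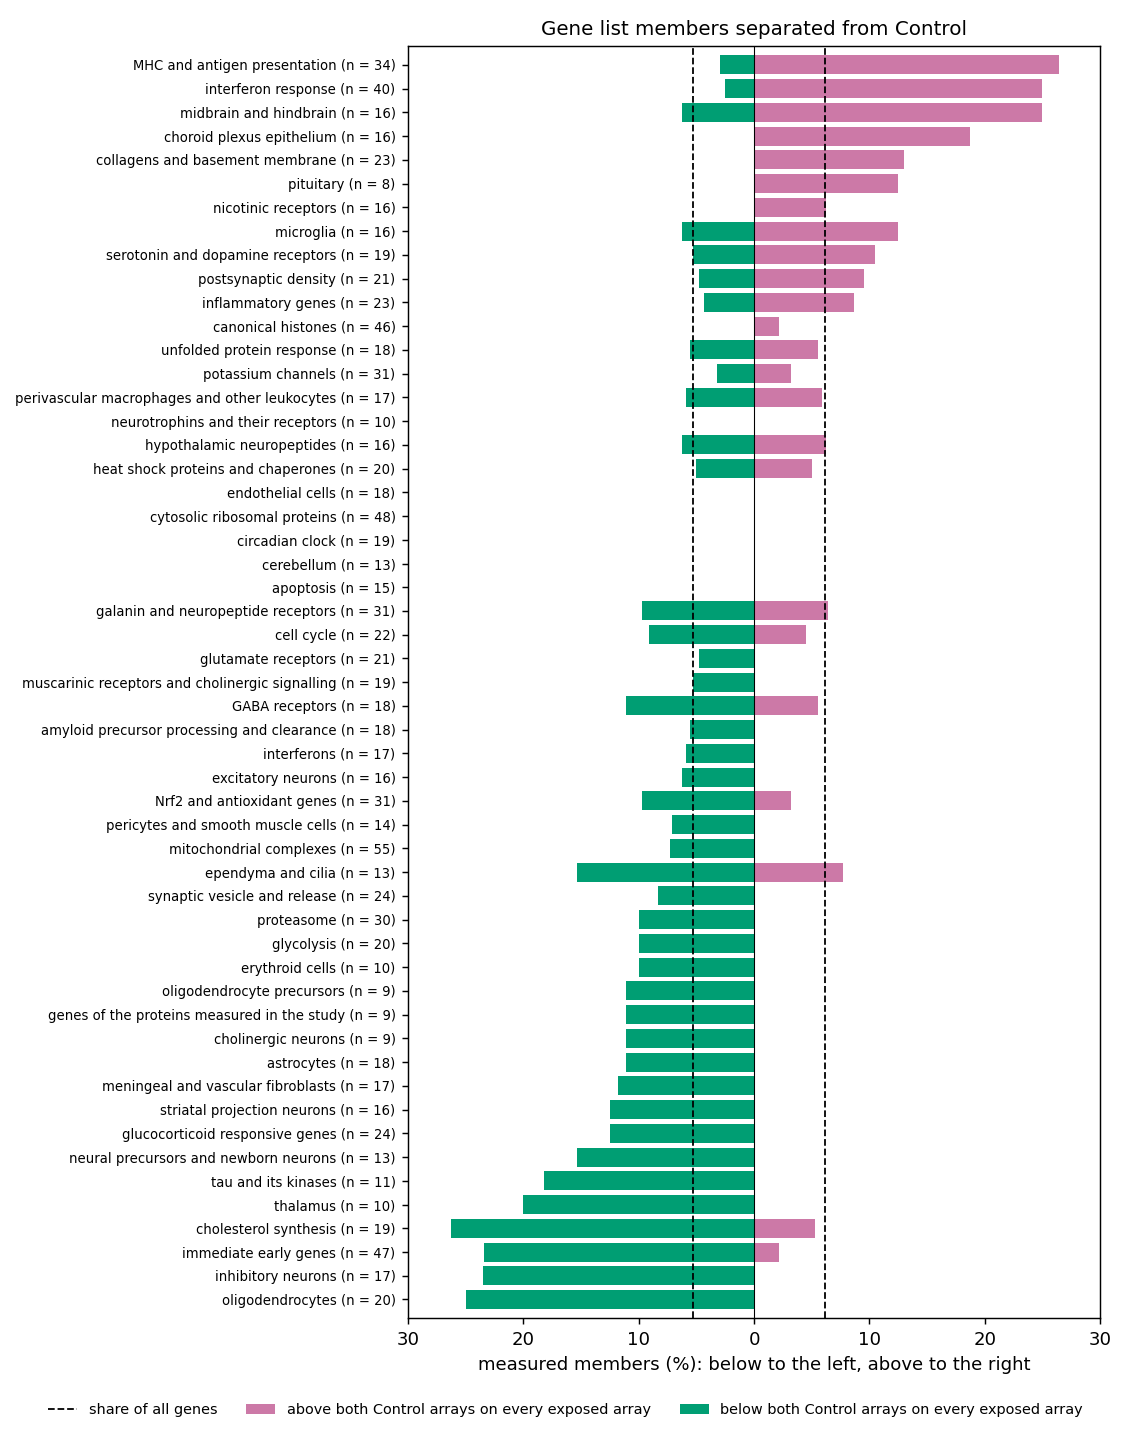
Share of measured members (%) of each of the 53 gene lists that lay above both Control arrays (right, pink) or below both (left, green) on every exposed array; dashed lines mark the shares of all 19505 genes, 6.12% above and 5.27% below, and n is the number of measured members. MHC, interferon, and midbrain and hindbrain genes extend farthest to the right, and cholesterol synthesis, oligodendrocyte, inhibitory neuron and immediate early genes farthest to the left.

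The muscarinic receptors, the textbook targets of scopolamine, showed no common shift. Chrm1, the main cortical and hippocampal subtype, measured 7.68 and 7.49 in Control, 7.61 and 5.88 in SCOP and 7.44 and 7.36 in CK2. Chrm4, the subtype of striatal projection neurons, measured 6.55 and 6.63 in Control, 6.45 and 5.01 in SCOP and 6.30 and 6.36 in CK2. Chrm4 lay below Control on every exposed array, by 0.10 on the nearest, and both genes were far lower on SCOP replicate 2 than on any other array. Chrm2, the presynaptic autoreceptor, measured 5.98 and 6.27 in Control, 6.22 and 6.07 in SCOP and 6.13 and 6.23 in CK2. Chrm3 measured 6.26 and 6.06 in Control, 6.30 and 5.63 in SCOP and 6.24 and 6.22 in CK2. Chrm5, dim on every array, measured 3.35 and 3.02 in Control, 3.54 and 2.45 in SCOP and 3.76 and 4.03 in CK2. The sides of these 3 genes overlapped. Of the 19 genes of muscarinic and cholinergic signalling only Chrm4 was separated from Control, and the list's median log2 change was 0.00. Among 16 nicotinic receptor genes, 12 of them dim, Chrna9 lay above Control (3.17 and 3.24 in Control, 3.35 to 4.31 in exposed brains), with SCOP replicate 2 highest, and overlapped in the other 3 scalings.

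A last set holds genes whose proteins were also assayed in these mice or in a mouse hippocampal cell line, 9 of which were analysed here. The cell line was treated with amyloid peptide, not with SCOP. Nfe2l2, which encodes Nrf2, the transcription factor of the antioxidant response, measured 5.0 and 4.82 in Control, 4.46 and 4.62 in SCOP and 4.69 and 4.41 in CK2. It was below Control on every exposed array (log2 change -0.36, standard error 0.17, unadjusted p of 0.0565) and dim on every array. Its partner Keap1 measured 6.44 and 6.66 in Control, 6.52 and 6.13 in SCOP and 6.38 and 6.78 in CK2. Its target Hmox1, heme oxygenase, measured 5.37 and 5.65 in Control, 5.20 and 4.90 in SCOP and 5.39 and 5.05 in CK2. Both overlapped Control. App, the amyloid precursor, measured 10.47 and 10.30 in Control, 10.48 and 9.62 in SCOP and 10.52 and 10.42 in CK2. Bace1, the beta-secretase, measured 6.86 and 6.33 in Control, 6.60 and 5.56 in SCOP and 6.72 and 6.64 in CK2. Ide, the insulin-degrading enzyme that clears amyloid peptide, measured 6.73 and 6.998 in Control, 6.90 and 5.91 in SCOP and 6.67 and 6.64 in CK2. In each the sides overlapped and SCOP replicate 2 was the lowest array. Syp, synaptophysin, measured 11.45 and 11.39 in Control, 11.36 and 10.63 in SCOP and 11.42 and 11.42 in CK2. Dlg4, the postsynaptic protein PSD-95, measured 10.18 and 10.22 in Control, 10.26 and 9.77 in SCOP and 10.20 and 10.29 in CK2. Cycs, cytochrome c, measured 9.73 and 9.76 in Control, 9.68 and 9.97 in SCOP and 9.64 and 9.40 in CK2. The sides of these 3 genes overlapped as well. Of these 9 genes 0 had a log2 change above 0, and 4 did without SCOP replicate 2. With cyclic loess the changes of Dlg4 (0.045) and Cycs (0.037) were above 0, and none was with quantile normalization or median centring.

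**Figure D5:**
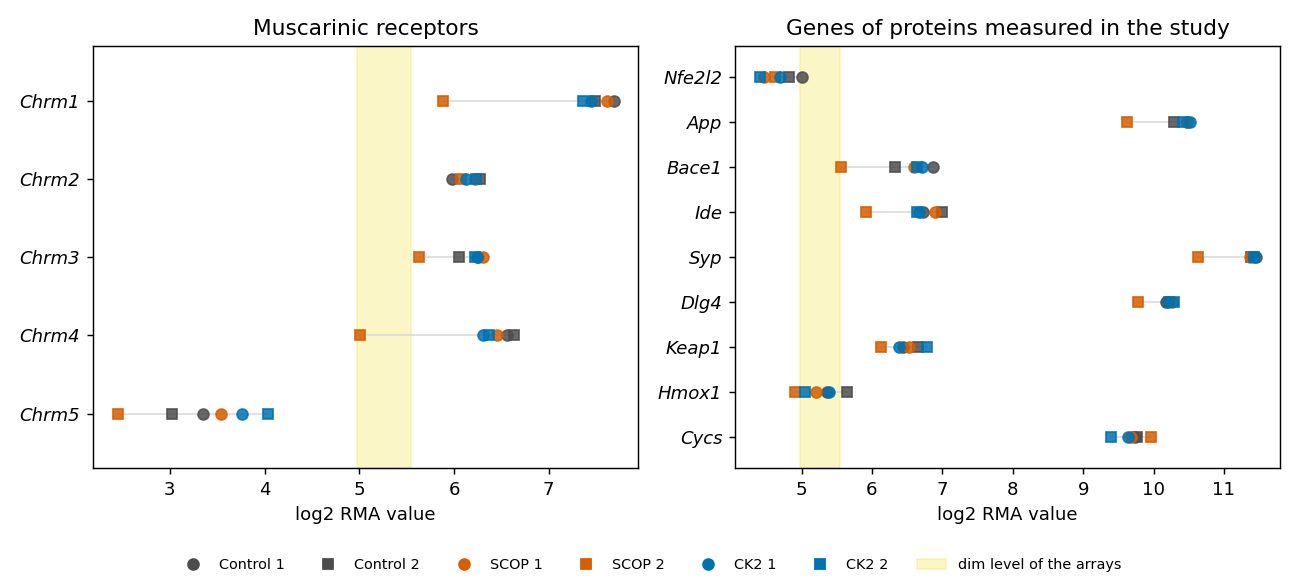
Levels (log2 RMA value, horizontal axis) on each array of the 5 muscarinic receptor genes (left) and of 9 genes whose proteins were also assayed (right); each point is 1 array, coloured by group, and the yellow band spans the dim levels. Only Chrm4 and Nfe2l2 have all 4 exposed points left of both Control points, and the orange square of SCOP replicate 2 is the lowest point of Chrm1, Chrm4, App, Bace1, Ide and Syp, among others.

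Without SCOP replicate 2 the 3 remaining exposed arrays and the 2 Control arrays gave more separated genes, as a smaller set of arrays must. No gene passed an adjusted p of 0.05 (smallest 0.622, 3 residual degrees of freedom). At an unadjusted p under 0.05, 729 genes (3.74%) had higher and 483 (2.48%) lower levels, together 1212 where chance alone gives 975. In all 2270 genes (11.6%) lay above and 1995 (10.2%) below both Control arrays, where exchangeable arrays would separate a share of 0.2. The gap reached 1.5-fold for 16 genes, which included the 7 of the full comparison. The 9 added were Nectin3 and Zfp97, already described, and, named after their values were seen, Zfp689, Zfp960, Tgtp2, Dsp, Eif4ebp1 and Usb1 with higher levels and Tmod4 with lower. Tgtp2, another interferon-inducible GTPase, measured 2.75 and 2.27 in Control, 3.69 and 3.04 in SCOP and 3.57 and 3.35 in CK2. Eif4ebp1, a repressor of translation, measured 2.65 and 2.75 in Control, 3.39 and 2.88 in SCOP and 3.63 and 3.39 in CK2, and SCOP replicate 2 was its lowest exposed array. Dsp, the desmosomal protein desmoplakin, measured 3.93 and 3.55 in Control, 4.63 and 3.49 in SCOP and 4.60 and 5.02 in CK2, and SCOP replicate 2 was the only exposed array not above Control. Ribosomal protein genes, none of which was separated with SCOP replicate 2 included, then had 20 of 48 below Control (median log2 change -0.14). Mitochondrial complexes had 16 of 55 below, where 10.2% of all genes lay below. These counts are for the deposited values only. The ribosomal list mean was 9.05 on both Control replicate 1 and CK2 replicate 1.

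The exposed groups could also be set against each other within the 2220 separated genes. CK2 and SCOP differed at an unadjusted p under 0.05 in 22 of them, and in 502 of all 19505 genes. No gene passed an adjusted p of 0.05 in CK2 against SCOP. Separated genes have SCOP and CK2 on the same side of Control, which selects against a difference between these groups. The count of 22 therefore cannot show whether the exposed groups agree. Fitted as 3 groups, SCOP against Control had 646 and CK2 against Control 280 genes at an unadjusted p under 0.05 and none at the adjusted threshold, and both comparisons use the same Control arrays. The smallest p that an exact two-sided permutation test allows is 0.133 for 4 arrays against 2 and 0.2 for 3 against 2, so no single gene could pass 0.05 by permutation.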

How the data were processed

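Brain RNA of 6 ICR mouse samples was measured on Affymetrix arrays. The values deposited by the authors are on the log2 scale, 1 for each probe set, and come from RMA per the submitters' processing notes, with no version or genome build given in the sources used here. RMA removes background, scales the arrays to each other and combines the probes of a set, so differences in total RNA cannot be read. The values were not normalized again. The 29129 probe sets include 22206 for transcripts and 5222 negative controls. The platform's annotation table gives 1 symbol to 19572 of them, all found by Entrez identifier in the RefSeq gene table of GRCm38.p6, and none to 2634. The brightest probe set stood for each of 55 genes with several, which left 19505 genes, with no filter on dim genes. Arrays have no read depth, and their number limits the precision.

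Exposed and Control arrays were fitted with limma 3.58.1 in R 4.3.3 (lmFit, eBayes, 2-sided, 4.60 prior degrees of freedom) and adjusted by Benjamini-Hochberg over all genes. The script was tested on simulated data. A gene was separated where all exposed arrays lay above, or all below, both Control arrays. Genes were named where separated, with at least a 1.5-fold mean change and a higher side above the mean dim level, up to 15 in each direction by widest gap, leaving out predicted, RIKEN, olfactory, vomeronasal and small RNA genes. Up to 4 separated members of each of 53 lists by unadjusted p, the muscarinic receptors and the genes of assayed proteins were added. The rule named 138 genes, and 29 more were added after their values were seen. Lists are described by counts and medians only. The comparison, members and lists were chosen with earlier results of these data known. The alternatives were 3 other scalings, 2 filters on dim genes, averaged probe sets, other variance models, array weights, 3 group means, a replicate block, the methods' t-test, other gap sizes and each array left out. The check of replicate numbers found no pairing.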

Additional observations from a re-analysis of the deposited data

Results flagged for a closer look

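By Dixon's ratio over the 4 exposed arrays, 26 of 167 named genes and 19 of 53 list means had 1 far array. In every case that array was SCOP replicate 2. The chance rate of about 1 in 20 holds for independent items picked without regard to these values. Most named genes were picked by their values on these arrays and the lists share members, so the counts cannot be set against that rate. The part of SCOP replicate 2 in each mean change was not tested beyond the values without it given above.
On SCOP replicate 2 neuronal and synaptic genes were low. Chrm1 stood at 5.88 (others 7.36 to 7.61), Chrm3 at 5.63 (6.22 to 6.30), Chrm4 at 5.01 (6.30 to 6.45), Npy at 6.29 (7.17 to 7.23), Unc13a at 6.72 (7.23 to 7.32), Syn2 at 8.59 (9.38 to 9.47) and Syp at 10.63 (11.36 to 11.42). Grin2b was at 7.76 (8.62 to 8.65), Gabrg3 at 5.35 (6.09 to 6.14), Dlg4 at 9.77 (10.20 to 10.29), Nr4a2 at 6.02 (7.67 to 7.82), Nr3c2 at 6.55 (7.07 to 7.17) and Tcf7l2 at 7.50 (9.08 to 9.13). App was at 9.62 (10.42 to 10.52) and Bace1 at 5.56 (6.60 to 6.72).
Other genes low on it were Slc2a5 at 3.34 (4.91 to 4.99), Cbll1 at 4.04 (6.48 to 6.61), Hspa2 at 5.13 (6.44 to 6.55), Psmd3 at 7.23 (7.98 to 8.06) and Usb1 at 3.72 (4.37 to 4.46). Genes high on it were Crh at 5.32 (4.89 to 4.93), Trem2 at 5.24 (4.60 to 4.66), Chrna9 at 4.31 (3.35 to 3.44), Drd4 at 5.75 (4.68 to 4.76), Rrm2 at 4.37 (3.62 to 3.74) and Ifi35 at 5.11 (4.33 to 4.36). All were dim on the other exposed arrays, and all but Drd4 were dim on SCOP replicate 2 too, whose dim level of 5.55 was the highest.
Of the list means, those of cytosolic ribosomal proteins (9.60, others 8.998 to 9.05) and of MHC and antigen presentation (4.34, 4.21 to 4.23) were high. The neural lists were low, at 6.65 (7.40 to 7.54) for excitatory neurons, 6.70 (7.14 to 7.17) for inhibitory neurons, 6.59 (7.13 to 7.24) for the thalamus and 8.04 (8.16 to 8.18) for astrocytes. Synaptic vesicle genes were at 7.92 (8.61 to 8.64), the postsynaptic density at 7.63 (8.15 to 8.24), glutamate receptors at 6.41 (6.92 to 6.99), cholinergic signalling at 5.72 (6.43 to 6.50), neuropeptide receptors at 4.32 (4.77 to 4.85) and potassium channels at 5.88 (6.52 to 6.60). The remaining means were 4.76 (5.16 to 5.22) for pericytes and smooth muscle, 7.21 (7.37 to 7.39) for Nrf2 and antioxidant genes, 6.47 (6.86 to 6.90) for cholesterol synthesis, 7.73 (8.43 to 8.49) for glycolysis, 6.95 (7.49 to 7.54) for amyloid processing, 7.20 (7.79 to 7.88) for tau and its kinases and 7.46 (7.89 to 7.96) for the genes of assayed proteins.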

How the results depend on the processing

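With 2 Control arrays and many dim genes the limits are the few arrays and the low signal. No gene passed the adjusted threshold under any alternative run, including each array left out (0 to 0 genes). The 474 genes at an unadjusted p under 0.05 became 301 and 115 with genes above the 25th percentile or the median of brightness only, which tests fewer genes, 1088 with array weights (weight 0.162 for SCOP replicate 2) and 671 with the methods' t-test (0 after adjustment), and 274 (without Control replicate 2) to 1212 (without SCOP replicate 2) with an array left out. The 2220 separated genes became 1012 above the median of brightness and 3152 (without CK2 replicate 1) to 7280 (without Control replicate 1) with an array left out, 6307 without Control replicate 2, 3343 without CK2 replicate 2, 4265 without SCOP replicate 2 and 3571 without SCOP replicate 1; fewer arrays separate more genes by construction. The 7 genes with a 1.5-fold gap became 1 above the median of brightness, 0 at a 2-fold gap, 2220 with no gap, and 8 (without CK2 replicate 1) to 194 (without Control replicate 1) with an array left out, 49 without Control replicate 2, 14 without CK2 replicate 2, 16 without SCOP replicate 2 and 12 without SCOP replicate 1. Without SCOP replicate 2, 723 of 1212 genes at an unadjusted p under 0.05 were left above the median of brightness.
A replicate block gave 439 genes at an unadjusted p under 0.05 and 0 adjusted, and was run for these counts only. Same-numbered arrays did not deviate together (correlation of deviations 0.024 for Control and SCOP, -0.0049 for Control and CK2 and -0.028 for SCOP and CK2), so they share only a number.
Of the 153 separated named genes, 118 were also separated with quantile normalization, 135 with medians centred and 118 with cyclic loess. The log2 change turned from negative to positive for Dlg2 (0.0039 with quantile normalization, 0.040 with cyclic loess), Adam10 (0.0062 and 0.0093) and, with cyclic loess, Cox8a (0.00011), Cox5a (0.020) and Cox6a1 (0.044). The cause was not tested.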

Other observations

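Genes whose symbol starts with Zfp and a digit, a family of zinc finger proteins most of which are transcription factors, were noticed after the values were seen. Of 358 measured, 42 (11.7%) lay above both Control arrays on every exposed array and 11 (3.07%) below, where 6.12% and 5.27% of all genes did, 133 of the 358 being dim on every array. Without SCOP replicate 2 the counts were 60 (16.8%) and 24 (6.7%), where the shares of all genes were 11.6% and 10.2%. With quantile normalization they were 27 (7.54%) and 15 (4.19%), with cyclic loess 28 (7.82%) and 15 (4.19%), and with medians centred 26 (7.26%) and 19 (5.31%), where the shares of all genes above were 5.19%, 5.21% and 3.76% and those below 5.53%, 5.70% and 8.05%. The median log2 change was 0.05 as deposited and 0.00 with medians centred. Family members share similar sequences, and their probes may not tell them apart.
Of the 2634 probe sets with no symbol in the annotation table, 189 lay above and 124 below both Control arrays on every exposed array (11.9% together), and 0 had a gap of 1.5-fold. This is near the shares of all genes, 6.12% above and 5.27% below. The widest gaps were those of TC0200002219.mm.2 (log2 change 0.78) and TC1100002643.mm.2 (0.74) above Control and TC0700000556.mm.2 (-0.51) and TC0700002550.mm.2 (-0.67) below.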
